A study of Mus musculus with 17 samples.

Results

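The genes described here encode the proteins of the cytosolic ribosome, measured as polyadenylated mRNA in the mouse brain. They were chosen by name, as protein-coding genes of the GENCODE M21 annotation whose symbol begins with Rpl or Rps and a number, together with Rplp0, Rplp1, Rplp2 and Rpsa, and without the S6 kinases and pseudogenes. The rule gave 86 genes of the 46073 in the files, on 19 chromosomes. Of these, 77 encode core ribosomal proteins (43 of the large subunit, 31 of the small subunit and the 3 stalk proteins), 8 are close paralogs of a core gene, and 1, Rps19bp1, encodes a protein that binds the small subunit protein Rps19 and is not itself a ribosomal protein.

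Each cytosolic ribosome holds a small subunit, which reads the mRNA, and a large subunit, which joins amino acids. The proteins are needed in equal amounts apart from the stalk proteins Rplp1 and Rplp2, of which each ribosome carries more than one copy, and their mRNAs are among the most abundant of most cells. Most of these mRNAs begin with a C followed by an unbroken run of C and T bases, the 5′ terminal oligopyrimidine tract, through which the kinase complex mTORC1 and the binding protein Larp1 set their translation and stability. In neurons, ribosomal protein mRNAs are also carried into axons and dendrites.

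The samples were labelled as frontal cortex of male FVB/N mice, and the age of the mice is not given in the sources used here. The mice labelled dTg-211, called dTg below, carried a Tet-off pair of transgenes. One is a CamK driver, active in the excitatory neurons of the forebrain, and the other is a miR-211 transgene that the driver's protein turns on. The dTgDox mice had the same genotype and were given doxycycline for 4 days, which stops the driver's protein from acting. The Ct mice carried the CamK driver alone and no doxycycline, and they were the controls. The results rest on 3 dTgDox, 6 dTg (replicates 2 to 7) and 6 Ct libraries, and all 15 carry the driver. With no Ct mice given doxycycline, an effect of the drug and one of switching the transgene off cannot be told apart. The labels give each library as a sample of its own but do not say that each came from a separate mouse, so the p-values measure the spread between these samples. The header lines of dTg replicates 5, 6 and 7 share a stem whose meaning is not given.

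Some libraries stood apart from their labels. The library of dTg replicate 1 held the same values as the one labelled NTg (miR-211 transgene without the driver) in all 46073 genes, 24415 of them above 0. Both were left out, and dTg replicate 1 had a level of 8.21 for 8 cerebellar markers, the mean of log2(FPKM + 0.5), against at most 2.89 in any of the other 15 libraries. Hippocampal markers were at 4.35 to 4.52 in dTgDox, 1.79 to 1.99 in dTg and 1.71 to 2.11 in Ct. Olfactory bulb markers were above 3.5 in dTg replicate 3 (4.04) and Ct replicates 1 and 5 (4.89 and 3.94), against at most 0.965 in dTgDox. Striatal markers were above 4 in dTg replicates 2, 3 and 6 (5.08, 4.39 and 5.15) and Ct replicates 4 and 6 (5.90 and 6.03). In dTgDox they were at most 2.80. Among the untreated libraries in the fit, only dTg replicates 4, 5 and 7 and Ct replicates 2 and 3 stayed below both limits. The estimated relative depth of the 15 libraries ran from 0.839 to 1.17 of the median, and the groups overlapped.

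All levels are FPKM, fragment counts scaled to transcript length and to library size. Levels of different genes can be compared only roughly. Many of these genes have near-identical copies that may take up part of their reads, and the program that gave the values is not known. In Ct, the median of the 77 core genes was 219 FPKM, and 65 of the 77 averaged between 100 and 400 FPKM. Rplp1 was the highest (909 ± 73.5, SD, n = 6), and the next were Rpl13a (836 ± 54.0), Rps29 (743 ± 56.6), Rps21 (660 ± 67.5) and Rpl41 (620 ± 49.8). Neighbours in that order differed by less than the sum of their SDs. The median core gene varied by 8.00% (SD over mean) among the 6 Ct libraries.

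The paralogs were lower than most core genes, with 1 exception. Rpl22l1 averaged 220 FPKM in Ct, above its parent gene Rpl22 at 131 FPKM. Rpl36al had 88.1, Rps27rt 49.5, Rps27l 21.7 and Rpl7l1 14.8 FPKM, and Rps19bp1 had 15.5 FPKM. The muscle paralog Rpl3l and the testis paralogs Rpl10l and Rpl39l made up the remainder. Rpl10l was listed at 0 in all 15 libraries, Rpl3l did not exceed 0.566 FPKM and Rpl39l did not exceed 0.322 FPKM. These 3 did not pass the filter on low values (at least 0.5 FPKM in at least 3 libraries), and the other 83 genes did so in every group. The symbol Rps4l is annotated as a pseudogene and is not among the genes counted.

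The start regions of 66 of the 86 genes were found in RefSeq (build GRCm38.p6). A CTTTC on the gene's own strand within 50 bases of the start was present in 34 of the 66 genes, or 51.5%, against 14.6% of all 27018 genes with a start region. On the other strand the shares were 13.6% and 13.8%. The motif CCGGAAG, searched on both strands of the 300 bases from 250 before to 50 after the start, was in 26 of 66 genes, or 39.4%, against 9.93% of all genes. The motifs CTTTC and CCGGAAG can share a single base at most. Within 10 bases of the start, CTTTC on the gene's own strand was in 12 of the 66 genes, or 18.2%, against 2.91% of all genes. Core genes without it within 50 bases included Rpl11, Rpl27, Rpl34, Rps4x, Rps6, Rplp0 and Rpl41. The annotated first base lay in an unbroken run of at least 5 C or T bases in 21 of the 66 genes. That is 31.8%, against 11.8% of all genes. Core genes whose annotated first base is A or G included Rpl4, Rpl11, Rpl41, Rplp0, Rps4x and Rpsa, none of which is among the examples below. The 30 bases around the annotated start are shown as examples for the Rps27 family, which holds a core gene and both of its paralogs. They are also shown for 3 more core genes with CTTTC, and for the 2 lowly expressed genes Rpl7l1 and Rps19bp1, which show none. Capitals mark CTTTC, the annotated first base follows the 15 bases shown before it, and these starts lie between 0 and 281 bases downstream of the M21 gene start. A further annotated start of Rps27l, 327 bases downstream of the M21 gene start, is not shown.
Rps27, chr3:90213634-90213663, minus strand: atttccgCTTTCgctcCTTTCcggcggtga
Rps27rt, chr9:114982725-114982754, minus strand: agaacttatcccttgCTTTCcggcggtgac
Rps27l, chr9:66946071-66946100, plus strand: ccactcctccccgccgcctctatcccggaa
Rplp2, chr7:141447636-141447665, plus strand: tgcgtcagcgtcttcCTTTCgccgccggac
Rpl38, chr11:114668565-114668594, plus strand: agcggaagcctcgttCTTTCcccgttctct
Rpl28, chr7:4792950-4792979, plus strand: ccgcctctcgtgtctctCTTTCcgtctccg
Rpl7l1, chr17:46782642-46782671, minus strand: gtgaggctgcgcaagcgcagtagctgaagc
Rps19bp1, chr15:80264292-80264321, minus strand: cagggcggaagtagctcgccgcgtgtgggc

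The summed level of the 86 genes was highest in dTgDox. It was 27128, 27717 and 26978 FPKM in dTgDox replicates 1 to 3. In dTg it ran from 19578 through a median of 21667 to 24526 FPKM, and in Ct from 18872 through 21275 to 22919 FPKM. All 3 dTgDox libraries therefore lay above all 12 untreated ones, while dTg and Ct overlapped over most of their range. As a share of all FPKM in the library, the sum was 3.9004 to 4.08% in dTgDox, 2.88 to 3.62% in dTg and 2.77 to 3.32% in Ct. The mean sum was 1.25-fold higher in dTgDox than in dTg, 1.29-fold higher in dTgDox than in Ct, and 1.03-fold higher in dTg than in Ct. Both subunits contributed, with a ratio of large subunit and stalk FPKM to small subunit FPKM of 1.23 ± 0.020 in dTgDox (SD, n = 3), 1.26 ± 0.017 in dTg and 1.26 ± 0.020 in Ct (SD, n = 6 each).

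**Figure D1:**
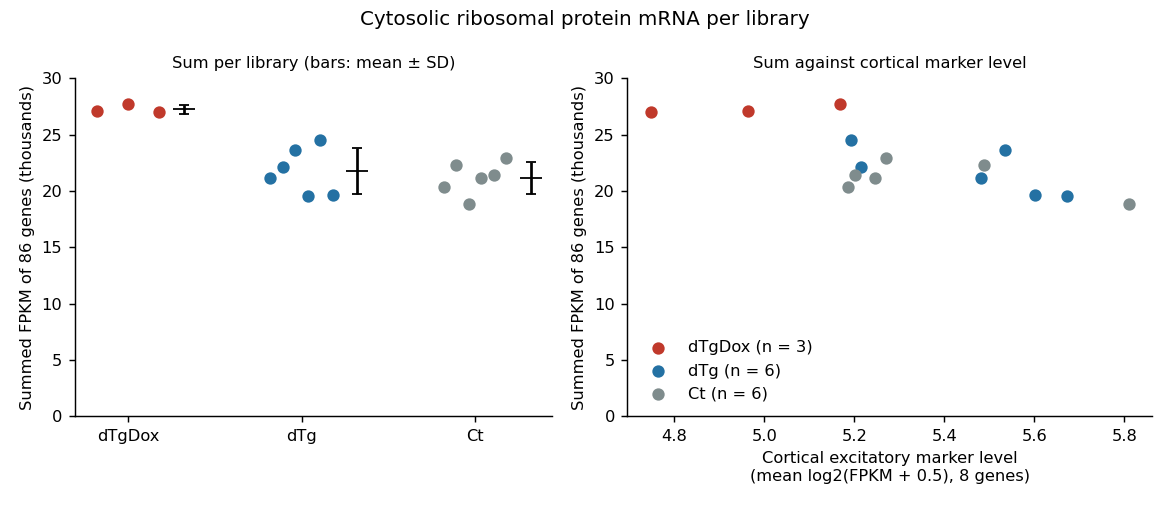
The left panel plots the summed FPKM of the 86 genes for each dTgDox, dTg and Ct library, with bars for mean ± SD. The right panel plots the same sums against the cortical excitatory marker level (mean log2(FPKM + 0.5) of 8 genes), and the 3 dTgDox libraries sit above all 12 untreated ones.

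Among the untreated libraries, the lowest sums came with high cortical markers. The 3 lowest, 19578 FPKM in dTg replicate 5, 19625 FPKM in dTg replicate 7 and 18872 FPKM in Ct replicate 3, came from the 3 libraries with the highest level of 8 cortical excitatory markers, at 5.67, 5.60 and 5.81. The other 9 showed no such order: dTg replicate 4, with the next highest marker level (5.53), had 23642 FPKM, and Ct replicate 1, with the lowest (5.19), had 20396 FPKM. Those markers were at 4.75 to 5.17 in dTgDox, 5.19 to 5.67 in dTg and 5.19 to 5.81 in Ct. Cortical markers are 1 of 11 lists, and other lists also went with the sums. The 3 highest untreated sums, in dTg replicates 6 and 4 and Ct replicate 6, came with the highest choroid plexus levels (2.09, 1.81 and 1.74). Ct replicate 3 and dTg replicate 5 had the lowest oligodendrocyte levels (6.55 and 6.39). Ct replicate 2 departed from both, with 22335 FPKM at levels of 0.05 and 6.65. Which list bears on the sums was not tested. In bulk tissue, fewer cells of a type and less RNA per cell cannot be told apart.

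The comparison of dTg with Ct asks whether the ribosomal protein mRNAs differ where miR-211 is made. None of the 83 genes tested passed the threshold in either direction (limma on log2(FPKM + 0.5), adjusted over all 19064 genes tested, threshold 0.05), and 0% of all genes did. In none of the 83 were the groups free of overlap, where 0.0787% of all genes were separated upwards and 0.0525% downwards. At an unadjusted p under 0.05 there were 0 of the 83 genes and 607 of all genes. The median difference was 0.036 (log2), with 70 of 83 genes higher and 13 lower, against a median of -0.0045 over all genes tested. The median over the 83 genes was -0.0033 without Ct replicate 3, the control library with the lowest sum.

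The named genes of this comparison overlapped between groups. Rps18, a small subunit protein, had 178 to 222 FPKM in dTg with a median of 202, and 201 to 247 FPKM in Ct with a median of 218. Its difference of -0.14 ± 0.06 (SE), or 0.06 with the near-identical copies of its sequence summed in, had the smallest unadjusted p of the 83, 0.0501, and an adjusted p of 0.9999 in limma. Rps7 had the highest difference, at 0.18 ± 0.09 (109 to 163 FPKM in dTg, 106 to 136 FPKM in Ct), or -0.04 with its copies summed in. Rpl36al was at 0.10 ± 0.06, Rpl17 at 0.10 ± 0.06, Rpl37 at 0.10 ± 0.07 and Rpl30 at 0.14 ± 0.11. Rpl23, Rpl7 and Rpl9 were at 0.08, 0.07 and 0.07, and Rpl7l1 was at -0.05.

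The mature microRNA is not measured in polyA libraries. Its main form, mmu-miR-211-5p (chr7:64205831-64205852, plus strand), is shown with the seed, bases 2 to 8, in capitals, since the seed is what a target site must match.
mmu-miR-211-5p: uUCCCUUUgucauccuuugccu
The 7-base match AAAGGGA was in the longest annotated 3′ UTR of 3 of the 86 genes (Rps20, Rps3 and Rpsa), or 3.49%, against 14.9% of 20606 protein-coding genes. The 3′ UTRs of the 86 genes were shorter, with a median of 156 bases against 960 bases. Of the 3, Rpsa had a difference of -0.01 ± 0.07 between dTg and Ct, and none passed the threshold.

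The comparison of dTgDox with dTg sets mice of 1 genotype with and without 4 days of doxycycline side by side. Hippocampal marker levels also separated these groups, at 4.35 to 4.52 in dTgDox and 1.79 to 1.99 in dTg. Doxycycline and tissue content therefore cannot be told apart here. In the counts, rose and fell mean called higher or lower in dTgDox. Of the 83 genes tested, 61 rose and none fell, against 9.65% of all genes tested that rose and 9.22% that fell (limma, adjusted p under 0.05). Called genes of either direction made up 18.9% of all genes. The median difference was 0.32 (log2), a 1.25-fold higher level, with 82 of 83 genes positive and quartiles of 0.24 and 0.38, against a median of -0.0054 over all genes tested. Against Ct, 68 of the 83 rose and none fell, where 9.86% of all genes rose, 9.85% fell and 19.7% did either, with a median of 0.35 and 83 of 83 positive. The 2 comparisons share the dTgDox libraries and are not independent. The groups did not overlap, with dTgDox higher, in 65 of the 83 genes against dTg (11.3% of all genes higher and 10.9% lower) and in 73 against Ct (11.5% of all genes higher and 11.8% lower). All 3 dTgDox libraries lay above all 12 untreated ones for 64 of the 83 genes, against 8.06% of all genes tested. The count of 61 was 33 without dTgDox replicate 1 and 35 without dTgDox replicate 2, where 5.37% and 6.77% of all genes rose. The count of 68 was 44 with dTg replicate 1 added, where 4.45% of all genes rose. It was 31 on the 8 libraries left without the untreated ones rich in olfactory bulb or striatal markers. That setting was chosen after seeing the data, 5.93% of all genes rose in it, and the median over the 83 genes was 0.40.

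**Figure D2:**
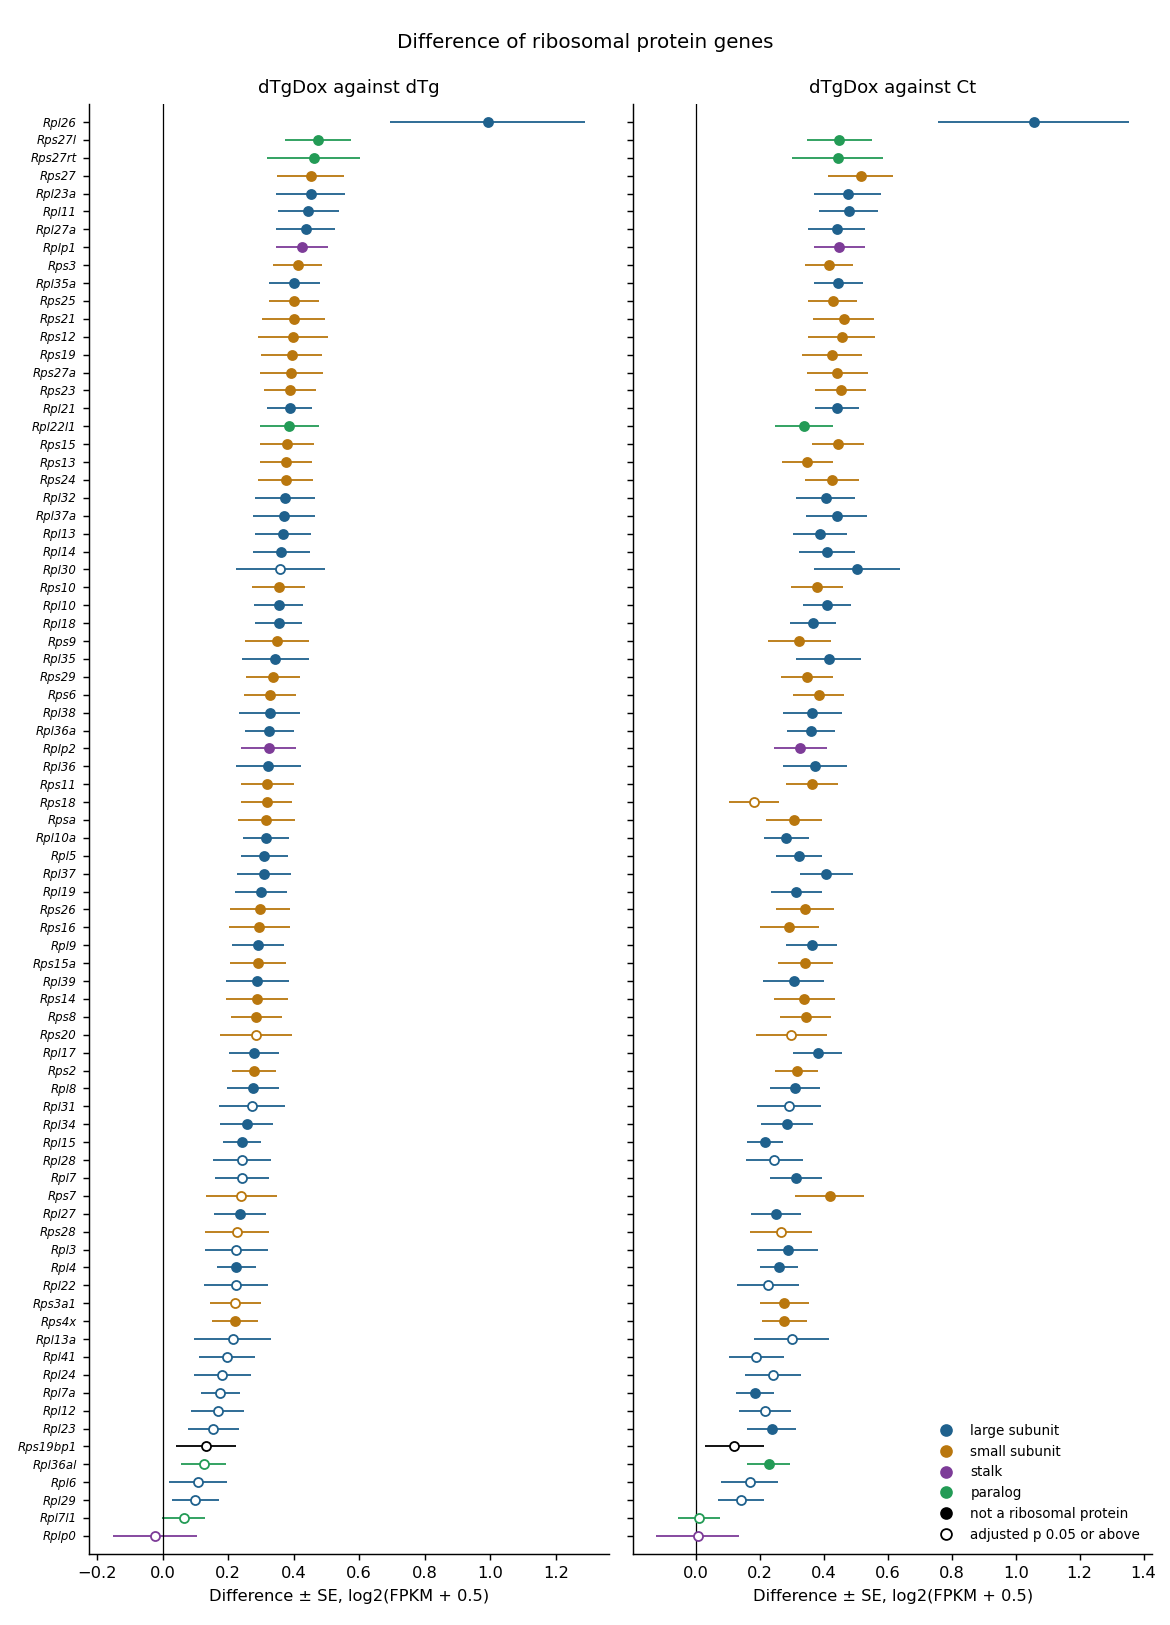
Difference ± SE of log2(FPKM + 0.5) for 80 of the 83 genes tested, dTgDox against dTg on the left and dTgDox against Ct on the right, coloured by the role of the protein. Filled points passed adjusted p under 0.05, 58 of those drawn on the left and 65 on the right, and nearly all points lie to the right of 0.

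Markers of other tissue moved with the same comparison, in which 9.65% of all genes tested rose and 9.22% fell against dTg. Of the 8 hippocampal markers 7 rose in dTgDox against dTg, with a summed level of 240 to 275 FPKM in dTgDox, 71.7 to 103 FPKM in dTg and 68.3 to 95.9 FPKM in Ct, and none was at 0 in any library. Of the 6 astrocyte markers 3 rose and 1 fell, with sums of 486 to 680 FPKM in dTgDox, 330 to 403 FPKM in dTg and 311 to 387 FPKM in Ct. Of the 8 cortical excitatory markers 1 rose and 3 fell. One choroid plexus marker of 6 rose, with sums of 27.0 to 1982 FPKM in dTgDox, 1.94 to 129 FPKM in dTg and 3.58 to 94.1 FPKM in Ct. None of the 6 oligodendrocyte markers passed, while their sums did not overlap, at 2580 to 3884 FPKM in dTgDox, 909 to 2510 FPKM in dTg and 1005 to 2206 FPKM in Ct. Of the markers of olfactory bulb, striatum, cerebellum and endothelium none passed against dTg, 1 of 6 microglial markers rose and 1 of 6 neuroblast markers fell. Their part in the higher level of the ribosomal protein genes was not tested, and in this design tissue content cannot be told apart from doxycycline.

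Most small subunit genes rose. Of 31 tested, 27 rose against dTg, where their median difference was 0.34, and 28 rose against Ct, where it was 0.36. Of all genes tested, 9.65% rose against dTg and 9.86% against Ct.

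Rps27 and its paralogs rose in near proportion. Rps27 had 781, 803 and 771 FPKM in dTgDox, against 495 to 687 FPKM in dTg with a median of 575, and 458 to 591 FPKM in Ct with a median of 569, with a difference of 0.45 ± 0.10 against dTg (adjusted p = 0.00625) and 0.52 ± 0.10 against Ct. Rps27rt, a retrogene of Rps27 that may share reads with it, had 64.7, 73.5 and 63.9 FPKM in dTgDox, 37.1 to 59.6 FPKM in dTg and 41.3 to 54.6 FPKM in Ct. Its difference was 0.46 ± 0.14 against dTg, and its level was 8.57% of that of Rps27 in dTgDox, 8.52% in dTg and 8.99% in Ct. Rps27l, a paralog known as a p53 target, had 27.2, 31.4 and 30.5 FPKM in dTgDox, 18.6 to 23.4 FPKM in dTg and 17.2 to 25.6 FPKM in Ct, a difference of 0.47 ± 0.10 against dTg (adjusted p = 0.00449). It stood at 3.78%, 3.71% and 3.94% of Rps27 in dTgDox, dTg and Ct. In none of the 3 genes did dTgDox overlap with the untreated groups.

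Rps6, the target of the S6 kinases, had 222, 226 and 229 FPKM in dTgDox, against 157 to 198 FPKM in dTg with a median of 188, and 153 to 183 FPKM in Ct with a median of 177. All dTgDox values lay above the other groups, with a difference of 0.33 ± 0.08 against dTg (adjusted p = 0.0100) and 0.38 ± 0.08 against Ct. Rpsa, known also as a precursor of the laminin receptor, had 177, 188 and 164 FPKM in dTgDox, 125 to 161 FPKM in dTg and 127 to 162 FPKM in Ct. Its difference was 0.32 ± 0.09 against dTg (adjusted p = 0.0195). Rps21 was higher by 0.40 ± 0.10 against dTg, and Rps12 and Rps23 by 0.46 ± 0.11 and 0.45 ± 0.08 against Ct. Rps4x, an X-linked gene, had the lowest difference among the genes called against dTg, at 0.22 ± 0.07 (adjusted p = 0.0386), with 287, 284 and 279 FPKM in dTgDox and 219 to 259 FPKM in dTg. Rps29, the third most abundant, was higher by 0.34 ± 0.08 against dTg.

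Of 43 large subunit genes, 29 rose against dTg, where their median difference was 0.30, and 34 rose against Ct, where it was 0.32. The shares of all genes tested that rose were 9.65% and 9.86%. Rpl11 (chr4:136028265-136053428, minus strand, in GRCm38, the build of all coordinates here), which also binds the p53 regulator Mdm2, had 290, 285 and 282 FPKM in dTgDox, against 176 to 244 FPKM in dTg with a median of 214, and 184 to 222 FPKM in Ct with a median of 207. The dTgDox values did not overlap with either group, and the difference was 0.44 ± 0.09 against dTg (adjusted p = 0.00399) and 0.48 ± 0.09 against Ct (adjusted p = 0.00237). Rpl23a, at the mouth of the exit tunnel, was higher by 0.45 ± 0.11 and Rpl27a by 0.44 ± 0.09 against dTg. Rpl10, which joins the large subunit at the end of its assembly, had 401, 380 and 376 FPKM in dTgDox, 271 to 327 FPKM in dTg and 246 to 313 FPKM in Ct, a difference of 0.35 ± 0.07 against dTg (adjusted p = 0.00412). Rpl36a and Rpl39 were higher by 0.32 ± 0.07 and 0.29 ± 0.10.

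The smallest called rises of the large subunit were those of Rpl4 (0.22 ± 0.06), Rpl27 (0.24 ± 0.08), Rpl15 (0.24 ± 0.06) and Rpl34 (0.26 ± 0.08) against dTg. Of the 29 settings other than those chosen after seeing the data, 7 called Rpl27 and 15 called Rpl34 against dTg, and 11 called Rpl39 (0.29 ± 0.10). Rpl15 had 118, 119 and 125 FPKM in dTgDox, 96.1 to 106 FPKM in dTg and 91.6 to 109 FPKM in Ct, so that even there the groups did not overlap. Rpl3, Rpl7, Rpl7a, Rpl23 and Rpl30 passed against Ct (0.29, 0.31, 0.18, 0.24 and 0.50) and not against dTg (0.22, 0.24, 0.18, 0.15 and 0.36). Of the same 29 settings, 11 called Rpl3, 11 Rpl7a and 12 Rpl23 against Ct. With near-identical copies summed, Rpl3 differed from dTg by 0.32 ± 0.08 (adjusted p = 0.0106, limma) and Rpl30 by 0.30 ± 0.09, and Rpl30 differed from Ct by 0.31 ± 0.09. Against dTg, 22 of the 83 genes did not pass. Among them, Rpl41 had 712, 717 and 684 FPKM in dTgDox, 549 to 702 FPKM in dTg and 560 to 690 FPKM in Ct, and its difference was 0.20 ± 0.09 (adjusted p = 0.129). Rpl13a had 933, 1012 and 1147 FPKM in dTgDox and 725 to 1122 FPKM in dTg, which overlapped, with a difference of 0.21 ± 0.12 (adjusted p = 0.231).

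In the stalk, which draws the translation factors onto the ribosome, Rplp1 and Rplp2 rose, and Rplp0 did so once its near-identical copies were summed in. Rplp1 (chr9:61913284-61914542, minus strand) had 1233, 1279 and 1200 FPKM in dTgDox, against 843 to 1074 FPKM in dTg with a median of 899, and 821 to 1024 FPKM in Ct with a median of 913. No dTgDox value overlapped with the others, and the difference was 0.43 ± 0.08 against dTg (adjusted p = 0.00169) and 0.45 ± 0.08 against Ct (adjusted p = 0.00111). Rplp2 had 375, 378 and 350 FPKM in dTgDox, 264 to 334 FPKM in dTg and 256 to 332 FPKM in Ct, a difference of 0.32 ± 0.08 against dTg (adjusted p = 0.0134). Rplp0, the scaffold that holds Rplp1 and Rplp2, had 163, 97.3 and 159 FPKM in dTgDox, against 123 to 151 FPKM in dTg and 122 to 144 FPKM in Ct. Replicates 1 and 3 lay above and replicate 2 below all untreated libraries, and the difference was -0.02 ± 0.13 against dTg (adjusted p = 0.929). With copies summed it was 0.26 ± 0.07 against dTg (adjusted p = 0.0180) and 0.29 ± 0.07 against Ct (adjusted p = 0.0102).

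Among the other paralogs, Rpl22l1 rose against dTg and its parent did not pass. Rpl22l1 had 312, 263 and 261 FPKM in dTgDox, 184 to 240 FPKM in dTg and 204 to 236 FPKM in Ct, a difference of 0.39 ± 0.09 against dTg (adjusted p = 0.00803). Rpl22, an RNA-binding protein needed for T cell development, had 159, 149 and 151 FPKM in dTgDox, 107 to 158 FPKM in dTg and 123 to 142 FPKM in Ct, a difference of 0.22 ± 0.10 (adjusted p = 0.127). Whether the differences of the pair differ from each other was not tested, and an antisense gene on the other strand of Rpl22l1 (Gm33051, 44.6 FPKM in Ct) cannot be told apart where reads were counted without strand. Rpl36al had 102, 100 and 107 FPKM in dTgDox, 85.6 to 106 FPKM in dTg and 79.99 to 92.7 FPKM in Ct, with 0.13 ± 0.07 against dTg (adjusted p = 0.221) and 0.23 ± 0.07 against Ct (adjusted p = 0.0291). Rpl7l1, at 14.4, 14.8 and 15.5 FPKM in dTgDox, 13.1 to 16.2 FPKM in dTg and 13.8 to 15.4 FPKM in Ct, overlapped with both groups, with 0.06 ± 0.07 against dTg. Rps19bp1 had 17.8, 17.9 and 14.9 FPKM in dTgDox and 13.6 to 15.9 FPKM in dTg, with 0.13 ± 0.09.

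The genes also rose and fell together among libraries of 1 group. Over the deviations of the 15 libraries from their group means, the median correlation between 2 of the 83 genes was 0.76, against 0.12 among the 78 mitochondrial ribosomal protein genes. This is a description, since all genes share the same libraries. The same correlation over all genes, or over genes of like FPKM, is not given here, so it does not set these genes apart. The correlation of each gene with the mean of the others had a median of 0.89 and was above 0.7 for 69 of the 83. The 8 genes below 0.5 were Rpl22l1 (0.010), Rpl26 (0.18), Rpl7l1 (0.20), Rps18 (0.30), Rpl36al (0.33), Rpl30 (0.35), Rps19bp1 (0.36) and Rplp0 (0.39). The size of the difference between dTgDox and dTg was little related to exonic length (Spearman's rho -0.075 over 83 genes) and weakly to coding length (-0.28) and to the level in Ct (0.20). It was also alike with and without the CTTTC motif: 25 of 33 tested genes that have it rose, with a median of 0.31, as did 21 of 30 without it, with a median of 0.31.

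**Figure D3:**
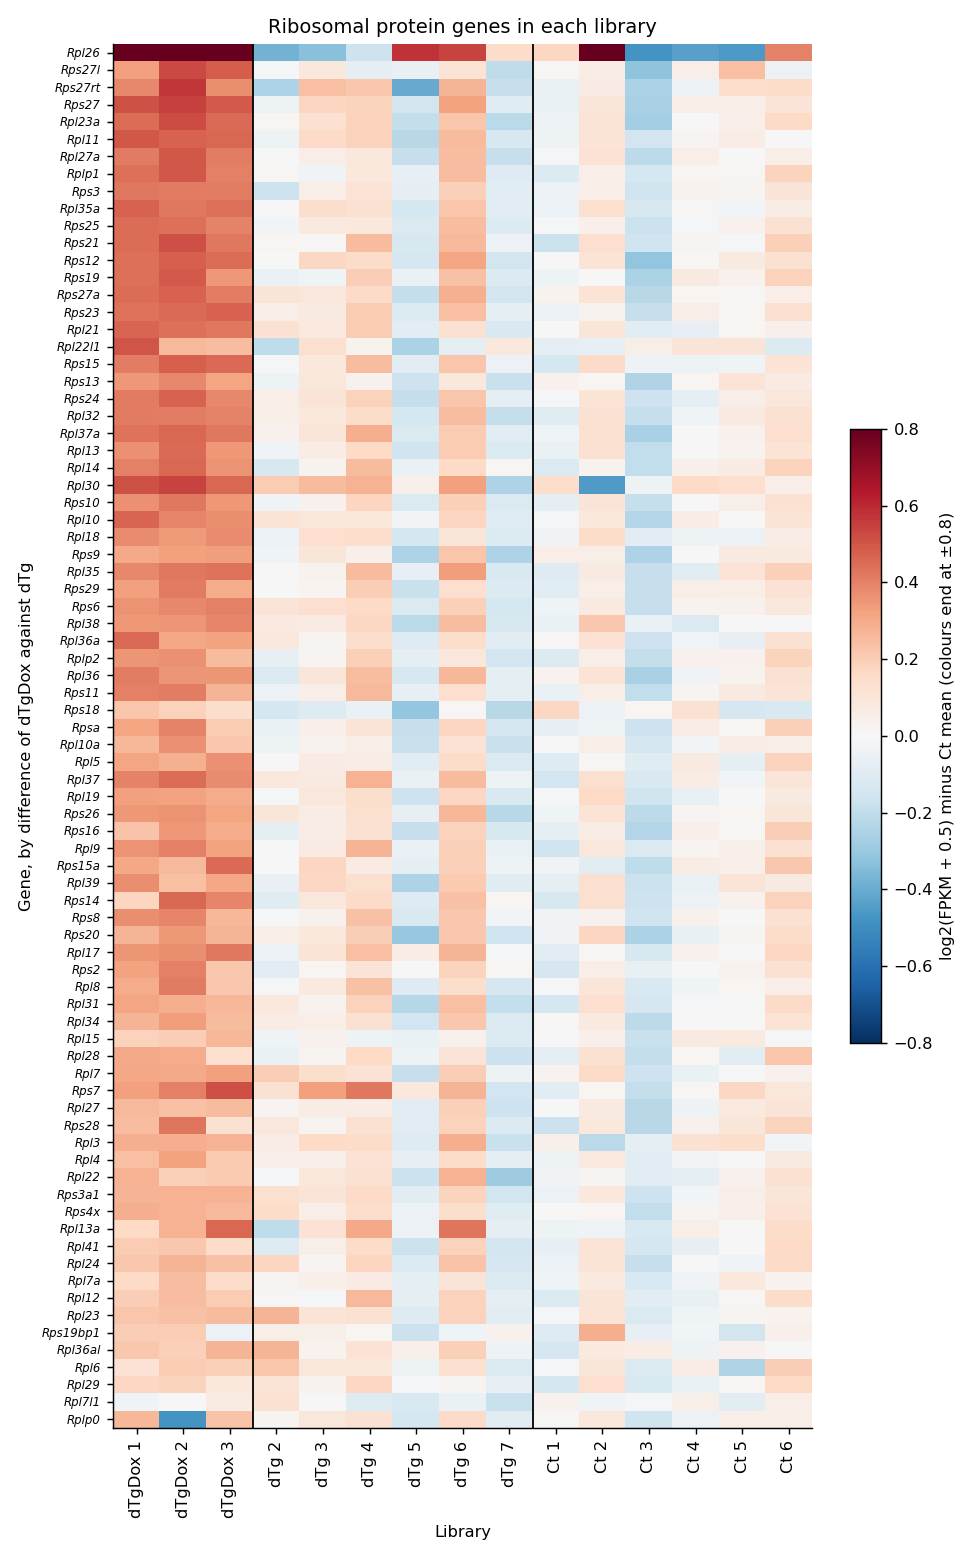
Colour gives log2(FPKM + 0.5) minus the Ct mean for 80 of the 83 genes tested (rows, ordered by the difference of dTgDox against dTg) in each of the 15 libraries (columns: dTgDox, dTg, Ct). The 3 dTgDox columns are red in nearly every row, and dTg 5, dTg 7 and Ct 3, the libraries with the lowest sums, are blue in most rows.

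Near-identical copies bear on the values of single genes. Of the 86 genes 75 had at least 1 annotated gene elsewhere with 95% identity over 80% of the coding sequence, 443 copies in all, of which 429 are annotated as pseudogenes. Rpl21 had 46 copies, Rpl7a 23, Rpl29 22 and Rps12 20. The copies summed to 7151 to 7593 FPKM in dTgDox, 5223 to 6426 FPKM in dTg and 5124 to 6056 FPKM in Ct. Of 310 copies tested, 115 rose and 2 fell in dTgDox against dTg, with a median of 0.31, where 9.65% of all genes rose and 9.22% fell. Reads of a gene and of its copies cannot be told apart where the sequences match, so the level of a copy need not be its own. When the copies were summed into each gene, 65 genes rose against dTg and 69 against Ct, with medians of 0.32 and 0.35. In that setting, chosen after seeing the data, 9.19% and 9.18% of all genes rose. Overlapping genes are a further limit on single values: 30 of the 86 genes hold snoRNA genes in their span, and 21 overlap a gene on the opposite strand, from which they cannot be told apart if reads were counted without strand.

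Against dTg, summing the copies brought 7 genes past the threshold (Rpl3, Rpl7, Rpl7a, Rpl30, Rplp0, Rps3a1 and Rps7) and took 3 below it (Rpl26, Rpl27 and Rpl39). Against Ct it brought 4 past it (Rpl31, Rplp0, Rps18 and Rps28) and took 3 below it (Rpl23, Rpl26 and Rpl39). Rps7 then differed from dTg by 0.44 ± 0.07 (adjusted p = 0.000368, limma) and Rps3a1 by 0.37 ± 0.08 (adjusted p = 0.00387). The 5 genes described next were picked out after their values were seen. Rpl26 (chr11:68901583-68906989), which lies at the exit tunnel and also binds p53 mRNA, had the largest difference of all, 0.99 ± 0.30 against dTg (adjusted p = 0.0337) and 1.06 ± 0.30 against Ct (adjusted p = 0.0240). It had 436, 449 and 440 FPKM in dTgDox, against 163 to 316 FPKM in dTg with a median of 212, and 152 to 374 FPKM in Ct with a median of 197. Its copy Gm15772, with 99.5% identity, had 90.5, 91.1 and 84.7 FPKM in dTgDox, 61.5 to 415 FPKM in dTg and 75.8 to 336 FPKM in Ct, and was lowest among the untreated libraries in dTg replicate 5 and Ct replicate 2, where Rpl26 was highest. With its copies Rpl26 had 597, 604 and 591 FPKM in dTgDox, 426 to 687 FPKM in dTg and 489 to 577 FPKM in Ct, and its difference was 0.09 ± 0.12 against dTg (adjusted p = 0.667) and 0.16 ± 0.12 against Ct (adjusted p = 0.367).

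In Rplp0, the low dTgDox replicate 2 was the library with high copies: Gm8730 had 12.0, 62.0 and 11.8 FPKM in dTgDox replicates 1 to 3, and 8.23 to 10.8 FPKM in dTg. With its copies Rplp0 had 180, 187 and 176 FPKM in dTgDox, 135 to 165 FPKM in dTg and 132 to 159 FPKM in Ct, without overlap. Rpl30 was low in Ct replicate 2 (195 FPKM) and dTg replicate 7 (224 FPKM), where several of its 10 copies were high, as they also were in Ct replicate 6. With copies its difference was 0.30 ± 0.09 against dTg (adjusted p = 0.0310). Rps18 had its highest Ct values in replicates 1, 3 and 4 (247, 223 and 240 FPKM), where its copy Gm10260 had 5.09, 5.24 and 6.12 FPKM, against 57.2 to 63.9 FPKM in the other Ct libraries. With copies its difference turned to 0.06 ± 0.07 for dTg against Ct and was 0.40 ± 0.08 for dTgDox against Ct (adjusted p = 0.00315).

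Rps2 showed another pattern. The gene itself had 252, 267 and 234 FPKM in dTgDox, 190 to 228 FPKM in dTg and 184 to 219 FPKM in Ct, a difference of 0.28 ± 0.07 against dTg (adjusted p = 0.00943). Its copy Rps2-ps10 had 172, 175 and 96.9 FPKM in dTgDox, 82.5 and 83.0 FPKM in dTg replicates 5 and 7, and 17.5 to 23.0 FPKM in the other 10 libraries. With its 13 copies Rps2 had 866, 890 and 603 FPKM in dTgDox, 319 to 523 FPKM in dTg and 310 to 373 FPKM in Ct, a difference of 0.95 ± 0.16 against dTg.

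**Figure D4:**
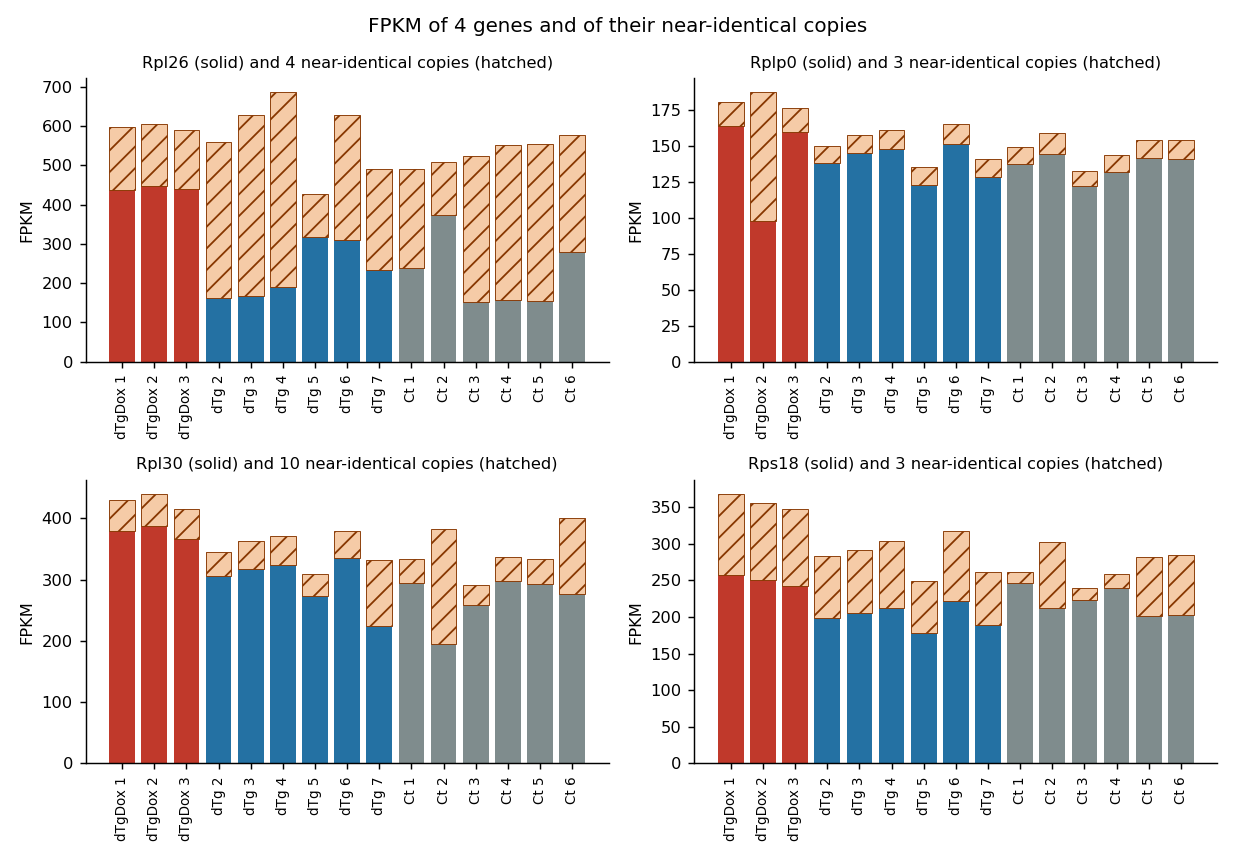
FPKM per library of Rpl26, Rplp0, Rpl30 and Rps18 (solid, coloured by group) with the summed FPKM of their near-identical copies stacked on top (hatched). The split between gene and copies differs from library to library, and for Rpl26 the total varies less than the gene alone.

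The other genes of translation were counted by direction. Fau, which encodes a small subunit protein fused to a ubiquitin-like one and falls outside the symbol rule, rose. It averaged 335 ± 17.1 FPKM in dTgDox and 258 ± 23.4 FPKM in dTg (SD over 3 dTgDox and 6 dTg libraries), with a difference of 0.38 ± 0.08 (adjusted p = 0.0053). Rack1, also outside the rule, averaged 210 FPKM in dTgDox and 188 FPKM in dTg, with 0.17 (adjusted p = 0.133). Of 20 tested genes with other 5′ terminal oligopyrimidine mRNAs, a list that also holds both, 7 rose and 1, Nap1l1, fell, with a median of 0.22. Of all genes tested, 9.65% rose and 9.22% fell. The initiation factor Eif3e was among the genes that rose, at 0.32 ± 0.06.

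Genes of the translation factors moved in both directions, and the counts against dTg below stand beside 9.65% of all genes tested that rose and 9.22% that fell. For the counts against Ct these shares were 9.86% and 9.85%. Of 37 initiation factor genes 7 rose and 2 fell (median 0.04), with Eif1b at 0.38 ± 0.07 and Eif2s2 at 0.22 ± 0.06. Of 13 elongation and termination factor genes, Eef1a1, which brings aminoacyl-tRNA to the ribosome, and its exchange factor Eef1b2 rose by 0.38 ± 0.09 and 0.31 ± 0.08, and the kinase Eef2k fell, at -0.52 ± 0.17. Of 36 genes of ribosome assembly and RNA polymerase I 4 rose and none fell against dTg (median -0.0014), and 2 rose and 2 fell against Ct. Against dTg, Polr1c was at 0.33 ± 0.08, Npm1 at 0.28 ± 0.07 and Nop16 at 0.26 ± 0.08.

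Of 14 genes of the mTORC1 pathway none rose and 4 fell against dTg, where 9.22% of all genes fell, and 3 fell against Ct. The inhibitor Deptor averaged 2.60 ± 0.396 FPKM in dTgDox and 5.29 ± 0.930 FPKM in dTg, a difference of -0.89 ± 0.16 (adjusted p = 0.0014). Rptor, the scaffold of the complex, was at -0.24 ± 0.07 and the inhibitor Tsc1 at -0.28 ± 0.08. The remaining gene was Eif4ebp1, a repressor of cap binding, at -0.50 ± 0.15, named here after its value was seen. Of the 78 mitochondrial ribosomal protein genes 15 rose and none fell against dTg (median 0.12), where 9.65% of all genes rose, and 11 rose and 1 fell against Ct. Against dTg, Mrpl11 was at 0.26 ± 0.05, Mrps16 at 0.28 ± 0.06 and Mrpl23 at 0.32 ± 0.07. In dTg against Ct no gene of these lists passed.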

How the data were processed

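Polyadenylated RNA of mouse frontal cortex was sequenced in single-end NEBNext libraries on a NextSeq, per the labels' protocols. The deposited files give 1 FPKM value per gene and library for 46073 GENCODE M21 genes, computed by the authors before deposit. For the authors' own work, the submitters' processing notes name TopHat2 and DESeq, without versions or roles. Which build, annotation and program gave the FPKM values, and whether reads were counted by strand, is not given in the sources used here. Coordinates and gene types come from the GENCODE M21 annotation (GRCm38), and sequences from RefSeq tables (GRCm38.p6). The number of reads is unknown, so no counting intervals are given.

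A gene was tested where 3 or more of the 15 libraries reached 0.5 FPKM, which left 19064 genes. The test was limma 3.58.1 (R 4.3.3) applied to log2(FPKM + 0.5), with 1 mean per group, a trended and robust variance and Benjamini-Hochberg adjustment over all genes tested. The threshold was an adjusted p of 0.05, two-sided. Fold changes are on that log2 scale and are understated for low genes. All 15 libraries entered 1 fit and share its estimate of the spread. Near-identical copies were found with BLAST+ 2.17.0 from transcript sequences (at least 95% identity over at least 80% of the coding sequence). Simulated data for dTgDox against dTg over all 19064 genes held 50 changed genes of each size. All of these were well expressed, and the noise was independent between genes. Changes of 0.3 were recovered in 24% of 50 genes, 0.6 in 84%, 1 in 92% and 2 in 100%, with 11 false calls among 18864 unchanged genes. In the real comparison 18.9% of all genes were called, and the ribosomal protein genes varied together. The simulated rates therefore do not carry over to them.

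The genes named are those with up to 10 highest and 5 lowest differences past the threshold in each comparison (filled to 10 by unadjusted p), the stalk proteins, Rpsa, Rps6, the paralog pairs, the 5 highest and 5 lowest genes by FPKM in Ct, and up to 3 genes of each other list by p. The other genes named, those with near-identical copies among them, were chosen after their values were seen. A few single-gene results are not reported here, though the counts and sums include those genes. The genes and all lists were chosen with earlier results of these data known. Alternatives changed the pseudocount, filter, scaling, length trend, library weights, libraries and replicate block.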

Additional observations from a re-analysis of the deposited data

Results flagged for a closer look

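Single libraries far from the rest of their group were looked for in 160 sets of 6 dTg or 6 Ct values, those of 80 of the genes tested, where chance alone marks about 1 in 20. There were 7 such values, and all were in Ct. The sets are not independent, since the genes vary together and most of these values come from Ct replicate 3. Their count therefore cannot be judged against that rate. Ct replicate 3 was far below the other Ct libraries in Rpl15 (91.6 FPKM, others 103 to 109), Rpl34 (208 FPKM, others 242 to 260), Rps12 (260 FPKM, others 324 to 352), Rps13 (129 FPKM, others 153 to 164), Rps27a (183 FPKM, others 215 to 230) and Rps9 (206 FPKM, others 246 to 259). Ct replicate 2 was far above them in Rpl38 (551 FPKM, others 439 to 476). Ct replicate 3 is the Ct library with the lowest sum, and the genes vary together among libraries, so its low values are not separate results.

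The library of dTg replicate 1, which the comparisons left out apart from 1 alternative, lay below all Ct libraries in 46 of these 80 genes. It lay above them in 4: Rpl18 (246 FPKM, Ct 184 to 216), Rpl24 (222 FPKM, Ct 170 to 215), Rpl7l1 (18.9 FPKM, Ct 13.8 to 15.4) and Rps27l (28.3 FPKM, Ct 17.2 to 25.6). The same counts over all genes are not given here, so these counts do not set the ribosomal protein genes apart. All FPKM of this library summed to 595615, against 628549 to 690919 in Ct. As a share of that total, the ribosomal protein genes made up 2.98%, inside the Ct range of 2.77 to 3.32%.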

How the results depend on the processing

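Of 30 alternatives, none gave a ribosomal protein gene called lower in any comparison, or called higher in dTg against Ct. The count called higher in dTgDox against dTg was 61. It lay between 33 (without dTgDox replicate 1) and 66 (without dTg replicate 6) when 1 library was left out. The count against Ct was 68 and lay between 47 and 70. The share of all genes called higher was 5.37% at 33, 9.29% at 66 and 5.90% at 47, against 9.65% and 9.86% in the main fit. The count against dTg moved to 31 with the replicate block, where 4.12% of all genes rose. The deviations of same-numbered libraries correlated at -0.188 to 0.08, and those of differently numbered ones at -0.113 to 0.183. With so few libraries per group, this measure shows no visible pairing but cannot exclude one. The count against Ct was 44 with dTg replicate 1 added (4.45% of all genes). It was 31 without the olfactory bulb rich or striatum rich untreated libraries (5.93% of all genes). The cause of these shifts was not tested. Other settings gave 41 to 67 against dTg (7.52% and 12.4% of all genes) and 54 to 73 against Ct (10.4% and 12.7% of all genes). The median difference lay between 0.26 (quantile normalization) and 0.38 against dTg, and between 0.28 and 0.40 against Ct. Rplp0 in dTgDox against dTg turned from -0.02 to 0.26 with near-identical copies summed, which were high in dTgDox replicate 2 (Gm8730 62.0 FPKM, Gm9625 21.8 FPKM). In all 29 settings other than those chosen after seeing the data, the same 19 genes were called against dTg and the same 33 against Ct. Tissue content, doxycycline and 3 dTgDox libraries limit these results, and depth is unknown.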
